A study of Mus musculus with 4 samples.

Results

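The epidermal growth factor (EGF) family of ligands and the Erbb receptors were examined in NMuMG cells, an epithelial line from the normal mouse mammary gland. Genes were taken by symbol from a list of 10, made up of 4 receptors (Egfr, Erbb2, Erbb3 and Erbb4) and 6 ligands (Areg, Ereg, Hbegf, Tgfa, Btc and Nrg1). Named rows were found for 8 of them, 3 receptors and 5 ligands, among the 14847 named genes of the gene-level table, and for 148 of their probesets among the 229581 of the exon-level table. Erbb4 and Areg were not analysed here.

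Erbb receptors are tyrosine kinases that pair with each other when a ligand binds, and they signal through the Ras-ERK and PI3K pathways. Egfr binds Ereg, Hbegf, Tgfa and Btc, Erbb3 binds neuregulins such as Nrg1, and Erbb2 has no known ligand of its own and acts as a partner of the others. The ligands are made as membrane proteins and released by proteases of the Adam family, and in the mammary gland the family is known for its part in duct growth.

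One condition was left untreated and the other received 1 ng/ml recombinant human TGF-beta1, a cytokine under which many epithelial cells lose their junctions and turn mesenchymal, for 24 h. Both were cells of the same line, grown in DMEM (glucose at 4.5 g/l) with 10% fetal bovine serum, insulin at 10 ug/ml, penicillin and streptomycin, and no genetic change is named for either. Each condition had 1 Affymetrix exon array, whose values are given per gene and per exon probeset. No difference below therefore has a replicate check, and no p-value was computed. All differences are TGF-beta minus untreated on the scale of log2(intensity + 1), where 1 is a 2-fold difference. Intensities of different genes come from different probes and are not compared with each other.

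A gene or probeset was called at level when its brighter array reached the median of all values, which was 124 at gene level and 265 at exon level. Of the 5 epithelial markers, 4 were measured and 3 of these were at level in both arrays, while Epcam was below the rule in both (68.5 and 62.2). The other 3 moved apart: E-cadherin (Cdh1) had 4153 untreated and 1698 with TGF-beta (−1.29), the keratin Krt19 had 4612 and 578.1 (−2.99), and Krt18 had 8494 and 9785 (0.20). The summed epithelial intensity was 17329 untreated and 12123 with TGF-beta, and the part of this in the members' differences was not tested. All basal and endothelial markers were below the rule in both arrays. Of the leukocyte, adipocyte and fibroblast lists 1 marker each was above it in both arrays. These were Cd68 (316.9 untreated and 190.4 with TGF-beta), Plin1 (155.7 and 258.7) and Col1a1 (198.6 and 388.8). The other markers of these lists were below it in both arrays, with the leukocyte marker Ptprc at 16.9 and 16.6. The fibroblast sum was 341.8 and 608.9, and its part in the differences below was not tested. As a check of the treatment label, the pathway inhibitor Smad7 differed by 1.09 and Ccn2, a matricellular target of TGF-beta, by 1.63. Skil, a Smad co-repressor, differed by 1.15, and Id1, an inhibitor of helix-loop-helix factors, went the other way at −1.89. Over all gene-level clusters the median difference was −0.14, and over the 9159 genes at level it was −0.27, so a member at 0 stood above the middle of the array.

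Among the receptors, Egfr was higher and Erbb3 lower with TGF-beta, while Erbb2 differed little. Egfr (transcript cluster 6778972), the receptor that gives the family its name, had an intensity of 1019 untreated and 1475 with TGF-beta. This was 1.45-fold higher, a difference of 0.53, and 92.4% of the genes at level had a lower one. Erbb2 (transcript cluster 6784005), the partner receptor, had 1170 untreated and 930.1 with TGF-beta. Its difference of −0.33 lay near the middle of all genes, with 45.1% of them lower. Erbb3 (transcript cluster 6778044), a neuregulin receptor whose own kinase is weak, had 181.6 untreated and 74.2 with TGF-beta. It was 2.45-fold lower, a difference of −1.28, with only 4.28% of genes lower. The TGF-beta value of Erbb3 lay below the level rule, which the gene met through the untreated array alone, so the size of this difference is uncertain. In RNA of a whole culture, fewer cells with a transcript and less of it per cell cannot be told apart.

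Of the 5 ligands, Hbegf alone was higher with TGF-beta and the other 4 were lower, Ereg and Btc by more than 2-fold. Heparin-binding EGF (Hbegf, transcript cluster 6864680), which is also the diphtheria toxin receptor in human cells, had 1058 untreated and 1889 with TGF-beta. It was 1.78-fold higher, a difference of 0.83, and 96.9% of the genes at level had a lower one. Epiregulin (Ereg, transcript cluster 6932387), a weakly binding ligand of Egfr, had 1191 untreated and 380.4 with TGF-beta. Of all members it had the lowest gene-level difference, −1.64 or 3.13-fold lower, and 2.17% of genes were lower. Betacellulin (Btc, transcript cluster 6939931), a ligand of Egfr and Erbb4, had 478.9 untreated and 175.3 with TGF-beta, a difference of −1.44 or 2.73-fold. Both values of Btc lay above the level rule. Neuregulin 1 (Nrg1, transcript cluster 6981530), the ligand of Erbb3 and Erbb4, had 2460 untreated and 1250 with TGF-beta. With a difference of −0.98, or 1.97-fold lower, it lay just inside the 2-fold rule, and 9.24% of genes were lower. Transforming growth factor alpha (Tgfa, transcript cluster 6947596), an Egfr ligand unrelated in structure to TGF-beta, had 1931 untreated and 1335 with TGF-beta. Its difference was −0.53, or 1.45-fold lower, and 28.7% of genes were lower.

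**Figure D1:**
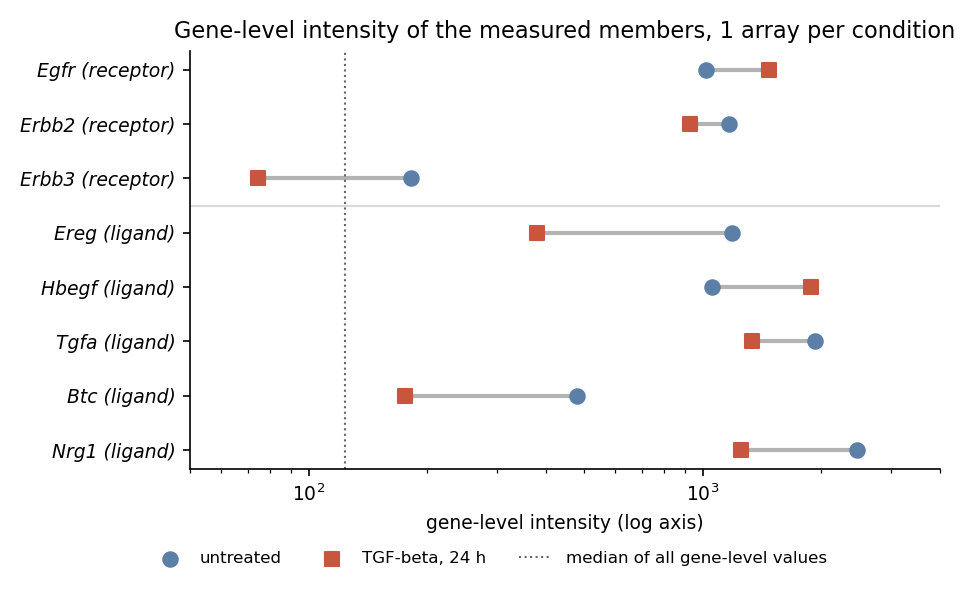
Gene-level intensity (log axis) of the 8 measured members in the untreated array (circles) and the TGF-beta array (squares), with 1 array each. Egfr and Hbegf lie to the right with TGF-beta, the other 6 to the left, and Erbb3 alone crosses the dotted line at the median of all gene-level values (124).

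At gene level, none of the 8 members passed 2-fold on the higher side and 3 did so on the lower (Erbb3, Ereg and Btc), with 5 within 2-fold. Over all genes at level, the share past 2-fold was 2.28% on the higher side and 8.70% on the lower. The lean of the arrays to lower values depended on scaling, and the shares were 3.72% and 4.38% after quantile normalization, where 1 member (Hbegf) was past 2-fold on the higher side and 3 on the lower. With the level rule met in both arrays 2 members (Ereg and Btc) were past 2-fold on the lower side, beside 7.15% of all genes that met it. With the rule at the 75th percentile 1 member (Ereg) was, beside 7.4% of all genes. The members' median was −0.75, beside −0.27 over all genes at level. With so few members, 3 of 8 is given as a count and not as a property of the family. Egfr was higher, as was its ligand Hbegf, whereas 3 other ligands of Egfr (Ereg, Btc and Tgfa) were lower. Nrg1 and its receptor Erbb3 were both lower.

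For regulatory context, the RefSeq windows of 300 bases around the gene start (build GRCm38.p6) were searched. Hbegf was left out of this search beforehand, so no ligand with a higher value was covered. Among the other measured members, a window was listed for 4 (Egfr, Erbb2, Tgfa and Btc). The letters CAGGTG on either strand, an E-box form that Snail and Zeb repressors bind, occurred in 20.2% of all 32851 windows. They occurred once in Tgfa, from base 54, and once in Btc, from base 141, and not in Egfr or Erbb2. The letters TGANTCA, the AP-1 site, were found in 7.81% of all windows, and the Smad palindrome GTCTAGAC in 0.213%. Neither was in any of these 4 windows. These matches describe letters in short windows and say nothing of binding. The windows of Btc and Tgfa, ligands with lower values, and of Egfr, their receptor with a higher value, are shown 5′ to 3′ on the gene's strand, with the E-box letters in capitals. They lie at chr5:91402945-91403244 on the minus strand (Btc), at chr6:86194972-86195271 on the plus strand (Tgfa) and at chr11:16751953-16752252 on the plus strand (Egfr).
Btc: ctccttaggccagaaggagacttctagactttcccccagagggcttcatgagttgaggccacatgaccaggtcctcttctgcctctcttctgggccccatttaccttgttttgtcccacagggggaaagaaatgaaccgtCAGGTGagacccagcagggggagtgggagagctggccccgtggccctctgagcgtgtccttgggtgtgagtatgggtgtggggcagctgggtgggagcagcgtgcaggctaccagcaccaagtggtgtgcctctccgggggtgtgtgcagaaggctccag
Tgfa: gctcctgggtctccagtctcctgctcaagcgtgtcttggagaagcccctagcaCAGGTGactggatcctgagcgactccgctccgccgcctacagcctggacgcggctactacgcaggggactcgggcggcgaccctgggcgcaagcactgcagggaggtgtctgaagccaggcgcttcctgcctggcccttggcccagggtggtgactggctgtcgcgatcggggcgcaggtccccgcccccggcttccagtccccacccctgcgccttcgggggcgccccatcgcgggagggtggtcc
Egfr: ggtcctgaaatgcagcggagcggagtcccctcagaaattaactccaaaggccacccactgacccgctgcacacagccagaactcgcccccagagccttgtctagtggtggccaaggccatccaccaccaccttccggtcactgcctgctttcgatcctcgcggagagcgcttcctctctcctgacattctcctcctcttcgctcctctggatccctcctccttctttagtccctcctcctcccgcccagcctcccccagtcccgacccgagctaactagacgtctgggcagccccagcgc

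The exon level asked whether the parts of each transcript moved with the gene. A probeset covers an exon or part of one, and the standard deviation (SD) over a gene's probesets measures how the parts of a transcript vary, not how cultures vary. Of the 148 member probesets 114 were at level. Among these, 3 were 2-fold or more higher (2.63%) and 26 were 2-fold or more lower (22.8%). Over all named probesets at level the shares were 3.55% and 11.6%. After quantile normalization 10 were higher (8.62%, with 6.83% over all) and 18 lower (15.5%, with 6.16% over all). With a lowess trend on level taken out 9 were higher (7.89%, with 6.48% over all) and 19 lower (16.7%, with 6.6% over all). Of the 26, 13 met the level rule in both arrays (13.3% of the member probesets that did so, with 5.99% over all), and the other 13 met it in the untreated array alone. The 26 came from 6 genes, with 9 in Nrg1, 6 each in Erbb3 and Ereg, 3 in Btc and 1 each in Erbb2 and Tgfa. Probesets of 1 gene share their RNA, so these are not separate observations.

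Egfr was even among its probesets at level. All 29 of its probesets at level were higher, with differences from 0.20 to 1.05 and a median of 0.54 ± 0.17 (SD). The 5 below the level rule lay between −0.64 and 0.10, the lowest of them being probeset 5316652 (244.2 untreated and 156.1 with TGF-beta). Hbegf was even as well. All 9 of its probesets were higher, from 0.39 to 1.23, with a median of 0.77 ± 0.25 (SD). Its brightest probeset, 4950796, had 2189 untreated and 5131 with TGF-beta. Over all probesets, whatever their level, the SD was 0.31 in Egfr, with 3 of 34 lower, and 0.25 in Hbegf. For Egfr and Hbegf, the gene-level differences of 0.53 and 0.83 lay within 1 SD of the probeset medians, as did those of every other measured member. Both levels summarize the same arrays, so this is no separate check.

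All 7 probesets of Ereg were lower, from −2.84 to −0.98, with a median of −1.66 ± 0.66 (SD). The brightest, 5256132, had 4876 untreated and 1852 with TGF-beta (−1.40). The dimmest, 5257598, had 490.6 and 67.6 (−2.84). The sizes thus spread widely while the direction did not. With TGF-beta only 4 of the 7 met the level rule, and with the rule met in both arrays the Ereg median was −1.30. All 9 probesets of Tgfa were lower too, from −1.09 to −0.32, with a median of −0.48 ± 0.23 (SD). Probeset 4438761 was the only one of Tgfa past 2-fold (524.1 untreated and 246.2 with TGF-beta), and the next lowest was at −0.69.

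Nrg1, a gene known for many splice forms with different N-terminal parts, had 14 of its 17 probesets at level. Of these 13 were lower, from −1.61 to −0.75, and 1 was higher at 0.79. Their median was −1.02 ± 0.58 (SD), which lay past the 2-fold rule that the gene-level value of −0.98 missed. The bright probeset 4325886 had 6135 untreated and 3654 with TGF-beta (−0.75), and the lowest, 4833055, had 2375 and 779.7 (−1.61). Probeset 5178124 went the other way, from 556.4 untreated to 962.7 with TGF-beta. All but 3 of the Nrg1 probesets were therefore above the level rule in both arrays, and 1 of those 14 opposed the gene.

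Of the 34 Erbb2 probesets 33 were at level, 27 of them lower and 6 higher, with a median of −0.36 ± 0.53 (SD). The 6 higher ones included 4953650, which had 176.0 untreated and 528.4 with TGF-beta (1.58), and 5196772, which had 1083 and 1831 (0.76). The gene-level value of Erbb2 (−0.33) thus covered probesets from −1.0 to 1.58. Btc had 5 of 7 probesets at level, 4 of them lower and 1 at 0.13, with a median of −1.36 ± 0.89 (SD). With the level rule met in both arrays the Btc median was −0.49 over the 3 probesets left. Probeset 4836538 of Btc had 359.1 untreated and 84.6 with TGF-beta (−2.07), whereas 4443028 had 305.6 and 334.0.

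Erbb3 lay mostly under the level rule at exon level. Only 8 of its 31 probesets were at level, 8 through the untreated array and 1 with TGF-beta as well. Their median of −1.84 ± 1.27 (SD) therefore favours probesets that were high untreated. With the level rule met in both arrays, 1 probeset was left and the value turned to 0.75. Over all 31 probesets, whatever their level, the median was −1.16 ± 0.90 (SD), with 29 lower and 2 higher. Probeset 4972664 opposed nearly all the rest, at 302.5 untreated and 510.9 with TGF-beta (0.75). The lowest, 5417585, had 309.2 and 34.3 (−3.13).

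**Figure D2:**
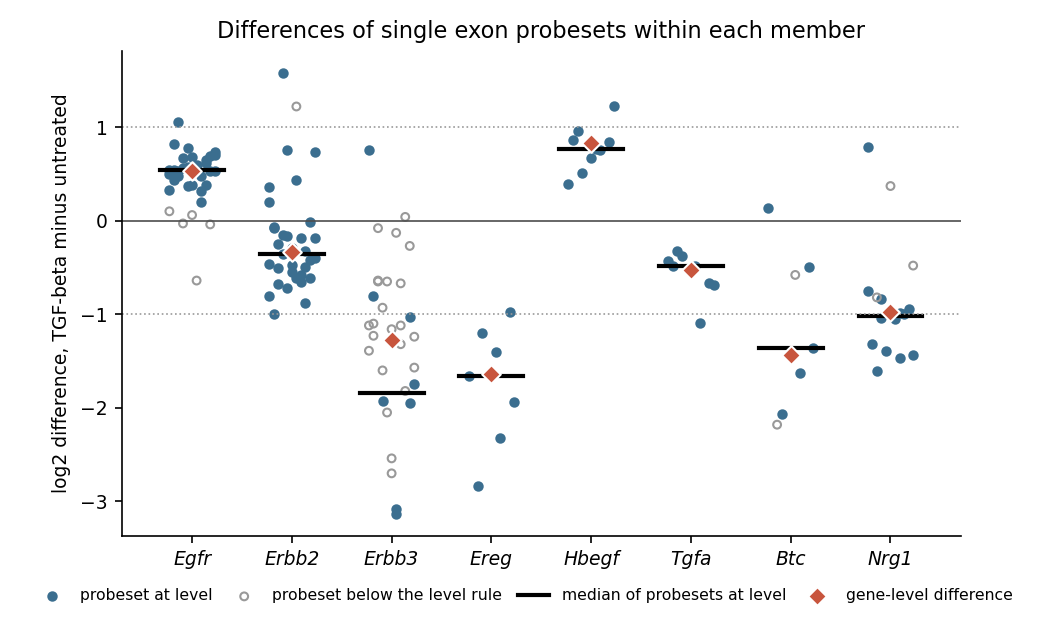
Log2 difference (TGF-beta minus untreated) of each exon probeset of the 8 members, filled where the probeset was at level and open where it was not, with the median of those at level (bar) and the gene-level difference (diamond). The dotted lines mark 2-fold. The points of Egfr and Hbegf at level all lie above 0, those of Ereg and Tgfa all below 0, and Erbb2, Erbb3, Btc and Nrg1 have filled points on both sides.

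To find probesets that departed from their own gene, a splicing index was taken as a probeset's difference minus the median difference of the gene's other probesets at level. A probeset departed when its index was 1 or more above or below 0. Of the 114 member probesets with an index, 8 departed upward (7.02%) and 4 downward (3.51%). Over all probesets so measured 2.02% departed upward and 1.62% downward. The 12 came from Erbb2, Erbb3, Ereg, Btc and Nrg1, and none from Egfr, Hbegf or Tgfa.

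The largest index was that of Erbb3 probeset 4972664, at 2.68. The other Erbb3 probesets at level met the rule through the untreated array alone, so the median it was set against favours lower differences. Its index was 1.95 without a level rule and 2.03 against the gene-level difference. Erbb2 had 3 probesets above the gene, 4953650 (1.96), 5196772 (1.14) and 5330375 (1.12), and none as far below it. Of the 3, 4953650 met the level rule through the TGF-beta array alone (176.0 untreated). The lowest index in Erbb2 was the −0.66 of probeset 5132392. In Nrg1, probeset 5178124 had an index of 1.83, and the lowest was the −0.60 of 4833055. In Btc, 4443028 (1.62) and 5584153 (1.01) departed upward and 4836538 (−1.15) downward. Ereg probeset 5257598 had the lowest index of that gene, −1.32, and 5551403 the highest, 0.82. In Erbb3, 5223670 departed upward (1.12), and 5417585 (−1.39) and 4630109 (−1.33) downward. The median that 5223670 (320.0 untreated and 182.8 with TGF-beta, −0.80) was set against favours lower differences in the same way. This probeset departed under 6 of 11 alternatives, and not without a level rule or against the gene-level difference.

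In the 3 genes with no departing probeset the extremes were small. They were 0.52 (5321676) and −0.34 (5280032) in Egfr, 0.46 (4950796) and −0.42 (4350184) in Hbegf, and 0.18 (4975581) and −0.61 (4438761) in Tgfa.

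All 4 probesets that departed downward had a TGF-beta intensity under the exon-level rule of 265. When both arrays had to meet the rule, 3 upward departures and 0 downward ones were left, namely 5178124 of Nrg1 and 5196772 and 5330375 of Erbb2. Of these, 5330375 only just met the rule, with 264.7 untreated. The share of all probesets that departed under this rule was not computed. Erbb3, Ereg and Btc then kept 1, 4 and 3 probesets, fewer than the 5 needed for an index. Their departures, among them all 4 downward ones, could therefore not be measured under that rule. Probesets 5178124 of Nrg1 and 5196772 of Erbb2 departed under all 11 alternatives tried, with indices from 1.77 to 2.0 and from 1.05 to 1.14. Centring, the smaller size rule and the lower minimum of probesets could not undo these departures, so the count of 11 overstates how far they were tried. No exon numbers or positions are given for these probesets.

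**Figure D3:**
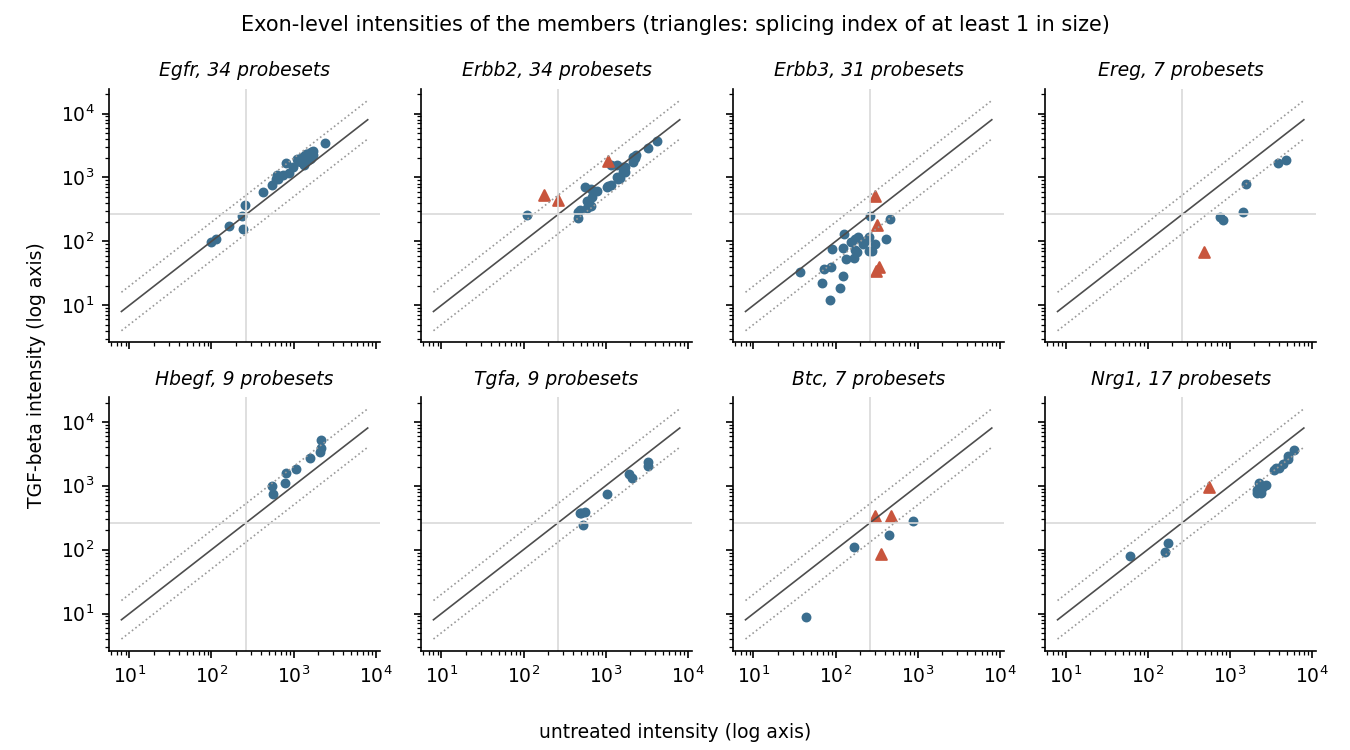
Exon-level intensity with TGF-beta against untreated (both log axes) for every probeset of the 8 members. The solid line marks equal values, the dotted lines 2-fold, the grey lines the level rule (265), and triangles the 12 probesets with a splicing index of at least 1 in size. Above the line of equal values lie 7 probesets of Erbb2, 2 each of Erbb3 and Nrg1 and 1 of Btc, while most of each of these genes lies below it.

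Because the arrays had not been brought to identical distributions, the member differences were also taken after 3 scalings, namely centring on the median difference, quantile normalization and removal of the trend of difference on mean level. The direction of all 8 gene-level differences was the same under each. Erbb3 (−1.14 to −1.30), Ereg (−1.28 to −1.51) and Btc (−1.08 to −1.31) stayed past 2-fold. Hbegf passed the 2-fold rule after quantile normalization (1.05) and trend removal (1.06), though not after centring (0.97), so its side of the rule depended on the scaling. Egfr was at 0.67, 0.77 and 0.79 after the 3 steps in that order. Erbb2 moved to −0.19, −0.05 and −0.05, close to no difference, and Tgfa to −0.39, −0.35 and −0.32. Nrg1 lay between −0.84 and −0.78. The plot of the 4 scalings shows the shift to higher values under all 3 steps in every member but Erbb3, whose value after trend removal was the lowest of its 4.

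**Figure D4:**
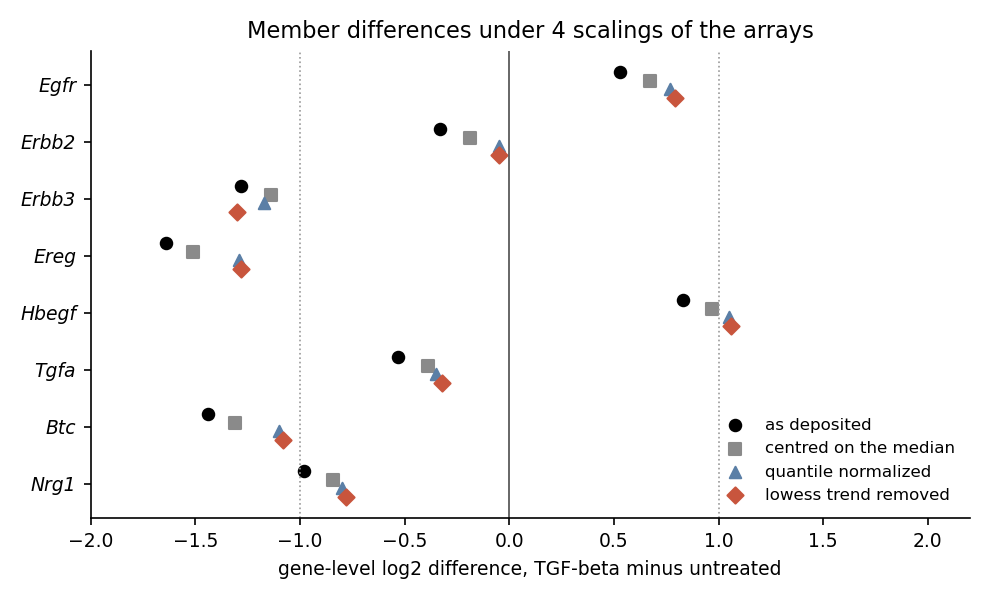
Gene-level log2 difference (TGF-beta minus untreated) of the 8 members with the arrays as deposited and under 3 scalings, with dotted lines at 2-fold. Erbb3, Ereg and Btc lie past the lower line in all 4, Hbegf crosses the upper line in 2, and Erbb2 comes close to 0.

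Other genes of the pathway were described by 6 lists, and most lay within 2-fold. Of 71 listed genes 54 were measured and 48 at level, with 2 higher (4.17%), 2 lower (4.17%) and 44 within 2-fold. Over all genes at level these shares were 2.28% and 8.70%, against which the counts of 0 to 2 genes in the single lists are to be read. Their median was −0.05, beside −0.27 over all genes at level. None of the 3 other EGF-family ligands measured was at level: Egf had 57.3 untreated and 62.1 with TGF-beta, Epgn 25.9 and 30.8, and Nrg4 29.3 and 26.8.

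Among genes of ligand shedding, 1 of 7 at level was higher, none was lower, and the median was 0.11. The higher one was Adam12, a metalloprotease reported to cleave Hbegf, with 130.2 untreated and 846.3 with TGF-beta (2.69, with 26 probesets at 2.71 ± 0.68, SD). Its untreated value lay just above the level rule. The iRhom proteins Rhbdf1 and Rhbdf2, which carry a sheddase to the cell surface, were at −0.04 and 0.11, and Adam10, which releases Btc, at 0.27. These 3, like Errfi1, Map2k1, Spred2, Ier3 and Dusp4, were picked after their values were seen. All 10 genes of receptor restraint at level lay within 2-fold, with a median of −0.11. The phosphatase Ptprj (1957 to 1224, −0.68) and the ubiquitin ligase Stub1 (1210 to 862.8, −0.49) differed by most. Errfi1, which binds and blocks the Erbb kinases, was at 0.17.

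Of 11 adaptor and Ras-ERK genes at level, 1 was higher, none was lower, and the median was 0.04. Gab2, a docking protein that links receptors to PI3K, had 898.1 untreated and 1944 with TGF-beta (1.11, with 12 probesets at 1.08 ± 0.27, SD). Map2k1, the kinase that activates ERK, was at 0.70. All 7 PI3K genes lay within 2-fold at a median of −0.31, with the regulatory subunits Pik3r1 (1464 to 827.6, −0.82) and Pik3r3 (702.8 to 469.2, −0.58) lowest. ERK response genes, which ERK signalling is known to raise, had 13 at level, of which none was higher and 2 were lower, at a median of 0.08. Spry1, a brake on receptor signalling, had 471.2 untreated and 124.2 with TGF-beta (−1.92, with 8 probesets at −1.33 ± 1.06, SD), and its TGF-beta value lay at the level rule. Dusp6, a phosphatase that switches off ERK, had 1808 and 838.9 (−1.11, with 6 probesets at −1.09 ± 0.16, SD). After trend removal Dusp6 was at −0.85, inside 2-fold, and Spry1 at −1.60. Within the list Spred2 (0.80), Ier3 (0.54) and Dusp4 (0.53) lay on the other side of 0, so its genes did not share a direction.

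**Figure D5:**
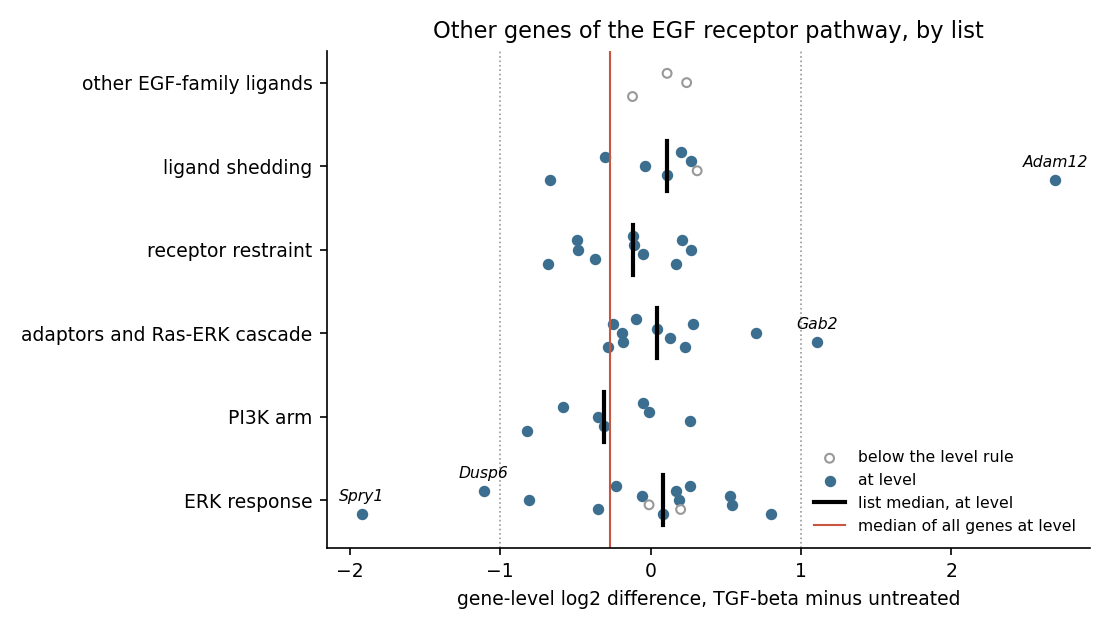
Gene-level log2 difference (TGF-beta minus untreated) of the measured genes of 6 pathway lists, filled where at level and open where not, with each list's median (bar) and the median of all genes at level (vertical line at −0.27). Adam12 and Gab2 lie past 2-fold on the higher side, Spry1 and Dusp6 on the lower side, and the rest within the dotted lines.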

How the data were processed

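The authors deposited linear intensities, with 1 value per transcript cluster (gene level) or per core probeset (exon level) and array. This follows from the labels' descriptions and from the values, which ran from 3.76 to 18284 at gene level and from 3.48 to 24667 at exon level. The background correction, normalization and summary method, like the genome build, are not stated in the labels or files used here. The 4 columns were read as 2 cultures seen at 2 levels, never as replicates, because the design text speaks of 2 samples. The number of arrays limits the precision.

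Gene names came from the platform annotation, updated through a RefSeq table (GRCm38.p6). Of the gene-level clusters 14996 had 1 symbol, 1019 several and 7317 none, and clusters with several or none were not named. Values became log2(intensity + 1). For a symbol with several clusters the one with the highest mean was used, though each measured member had 1. The splicing index needed at least 5 probesets at level. The lowess span was 0.3. The gene-level 2-fold calls and the splicing index were tested on simulated data, with large changes set in bright features only. Dim values such as those of Erbb3 were not covered. The medians over probesets or lists and the letter searches were not tested in this way. Python 3.11.15, numpy 2.4.6, pandas 2.3.3 and statsmodels 0.14.6 were used.

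The members and lists were chosen with earlier results of these data known. Named genes were all members, list genes past 2-fold (up to 4 each way, otherwise the 2 largest) and the probesets with the highest and lowest index of each member. Alternatives were other level rules, scalings, pseudocounts, a smaller size rule, exon-level medians and other settings of the index.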

Additional observations from a re-analysis of the deposited data

How the results depend on the processing

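No paired analysis was possible because each condition had 1 array at each level. A value with no count was held to have moved when it shifted by more than the SD over the gene's probesets or over a list's genes, which is no replicate error. By this rule Egfr moved after quantile normalization and trend removal, at gene level (from 0.53 to 0.77 and 0.79) and over probesets (from 0.54 to 0.76 and 0.79). The probeset median of Tgfa moved under the same 2 steps, from −0.48 to −0.23 and −0.22. At gene level, 0 members were higher and 3 lower, and 1 was higher after quantile normalization, after removal of the lowess trend and with a 1.5-fold size rule, while 1 (Ereg) was lower with the level rule set at the 75th percentile. Of member probesets, 3 were higher and 26 lower. The higher count was 10 after quantile normalization (8.62%, with 6.83% over all named probesets) and 9 after trend removal (7.89%, with 6.48%). It was 23 with the 1.5-fold rule (20.2%, with 9.49%). The lower count was 41 without a level rule (27.7%, with 11% over all) and 12 at the 75th percentile (15.8%, with 6.91%). It was 13 with the rule met in both arrays (13.3%, with 5.99%) and 41 with the 1.5-fold rule (36%, with 27.4%). Upward departures, 8 in all, were 2 at the 75th percentile, 3 with the rule met in both arrays and 14 with the 1.5-fold rule. Downward departures, 4 in all, were 8 without a level rule, 0 at the 75th percentile, 0 with the rule met in both arrays and 9 with the 1.5-fold rule. At the 75th percentile and with the rule met in both arrays, the genes of these 4 had too few probesets for an index. Neither 0 could therefore have counted these 4 probesets. The upward departures of Erbb3 and Btc could not be counted under these 2 rules either. For departures, the shares over all probesets under these alternatives were not computed. In the 6 pathway lists the 2 higher genes were 4 with the 1.5-fold rule. The 2 lower genes were 6 with that rule and 1 each at the 75th percentile, with the rule met in both arrays and under centring, quantile normalization and trend removal. With the level rule met in both arrays, the exon-level median of Erbb3 turned to 0.75, because 1 probeset was left. The other counts, 53 of 78, lay within 1.5 times. Over all genes at level, the share at least 2-fold lower was 4.38% and the share at least 2-fold higher 3.72% after quantile normalization. The lower and higher shares were 4.77% and 3.6% after trend removal, and 6.05% and 2.94% after centring. With the level rule met in both arrays they were 7.15% and 1.89%, and at the 75th percentile 7.4% and 2.42%. With the 1.5-fold rule they were 25.3% and 6.25%. Values under the level rule limit the size given for Erbb3.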
